A study of Mus musculus with 6 samples.

Results

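Macrophages that carried RNA of cell division were gated from the transplanted kidneys of a mouse allograft study, in which single cells were measured with a droplet method that counts unique molecular identifiers (UMIs). Members were selected on their raw UMI counts of 10 genes. A cycling macrophage was a cell barcode with at least 10 UMIs summed over the complement genes C1qa, C1qb and C1qc, at least 1 UMI of Top2a, at least 1 UMI of Mki67, Birc5 or Cdk1, and 0 UMIs of the lymphocyte genes Cd3e, Cd3d and Cd79a. Of the 36517 barcodes of the 4 transplanted kidneys with a minimum of 500 UMIs and 250 detected genes and no more than 50% of UMIs from mitochondrial genes, 277 met this rule, out of 49797 such barcodes in all 6 kidneys of the series. They were set against 3002 barcodes with the same C1q and lymphocyte limits and 0 UMIs of all 4 cycle genes, called non-cycling here, and the remaining 837 of the 4116 C1q-high barcodes carried some cycle gene without meeting the rule.

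The rejecting group was 2 BALB/c [I-Ad] kidneys placed in B6 male recipients without kidneys of their own (bilaterally nephrectomized) and with no further treatment, labelled male and 6 to 7 weeks old. The tolerized group was 2 such allografts in recipients that were also given intravenous BALB/c splenocytes treated with ethylenecarbodiimide (ECDI-SP) around the transplantation. Both groups were taken on day 15, so every transplanted kidney carried the same strain mismatch and surgery. The naive group was 2 untransplanted kidneys of male C57BL/6 mice (10 to 12 weeks), which served only to count barcodes. Each kidney gave 1 library, so p-values rest on the spread between 2 kidneys a group, and donor and recipient cells were not separated.

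Macrophages descend from monocytes or from resident cells seeded early in life, and in inflamed tissue they can also divide in place. A dividing cell first copies its DNA in S phase, with the MCM helicase, nucleotide-producing enzymes and the sliding clamp PCNA, and then builds the mitotic spindle in G2 and M phase under cyclin A, cyclin B and CDK1. The C1q genes encode the subunits of the first complement component and are made by tissue macrophages, TOP2A untangles replicated DNA, and Ki-67, encoded by Mki67, coats mitotic chromosomes. On GRCm38 the C1q genes lie side by side on the minus strand of chromosome 4 (C1qa at chr4:136895917-136898803), Top2a lies at chr11:98992943-99024189, Mki67 at chr7:135689784-135716361, Birc5 at chr11:117849251-117855743 and Cdk1 at chr10:69335146-69352938.

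The promoters of Top2a and of the 5 cycle genes outside the gate that differed most between cycling and non-cycling barcodes are shown because genes of mitosis are known to share a pair of short promoter elements. Each window runs from 150 bases before to 20 bases after the gene start in RefSeq (GRCm38.p6), read 5′ to 3′ along the gene. Capitals mark CCAAT or its reverse complement ATTGG, and TTTGAA, the core of the cell cycle genes homology region, or its reverse complement TTCAAA. The windows are Top2a at chr11:99024170-99024339 on the minus strand, Pclaf at chr9:65890173-65890342 on the plus strand, Ube2c at chr2:164769779-164769948 on the plus strand, Cenpf at chr1:189688067-189688236 on the minus strand, Rrm2 at chr12:24708104-24708273 on the plus strand and Hmmr at chr11:40733418-40733587 on the minus strand.
Top2a: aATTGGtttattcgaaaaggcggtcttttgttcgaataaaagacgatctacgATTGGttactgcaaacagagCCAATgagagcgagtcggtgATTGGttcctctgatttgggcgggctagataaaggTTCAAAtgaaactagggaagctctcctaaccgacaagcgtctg
Pclaf: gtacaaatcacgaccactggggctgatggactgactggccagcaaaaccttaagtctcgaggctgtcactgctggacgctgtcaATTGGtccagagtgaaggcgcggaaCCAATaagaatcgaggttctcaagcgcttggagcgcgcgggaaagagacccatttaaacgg
Ube2c: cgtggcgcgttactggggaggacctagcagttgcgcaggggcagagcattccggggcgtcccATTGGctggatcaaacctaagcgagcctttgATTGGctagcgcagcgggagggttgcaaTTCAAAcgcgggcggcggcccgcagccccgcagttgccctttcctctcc
Cenpf: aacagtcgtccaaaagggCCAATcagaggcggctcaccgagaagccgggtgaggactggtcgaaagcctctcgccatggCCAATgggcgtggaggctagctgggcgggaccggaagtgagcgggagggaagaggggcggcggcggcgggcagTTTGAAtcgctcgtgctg
Rrm2: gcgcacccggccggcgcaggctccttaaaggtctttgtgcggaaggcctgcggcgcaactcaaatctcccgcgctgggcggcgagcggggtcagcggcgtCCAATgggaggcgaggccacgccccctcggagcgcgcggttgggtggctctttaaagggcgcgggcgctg
Hmmr: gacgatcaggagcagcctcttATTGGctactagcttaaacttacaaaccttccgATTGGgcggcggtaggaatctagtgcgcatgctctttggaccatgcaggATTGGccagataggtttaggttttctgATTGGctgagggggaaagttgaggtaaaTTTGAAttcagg
Top2a and Hmmr each held 4 matches to CCAAT and 1 to TTTGAA, Ube2c and Cenpf held 2 and 1, and the replication genes Pclaf and Rrm2 held CCAAT but no TTTGAA in this window. Among all 32851 promoter windows of the same length, 10.0% held TTTGAA, 26.3% held CCAAT and 2.68% held both, on either strand. In the list of G2 and mitosis genes, 34 of 39 genes matched the table with 36 windows, of which 55.6% held TTTGAA, 77.8% held CCAAT and 18 held both. In the list of DNA replication and S phase genes, 27 of 32 matched with 32 windows, of which 9.38% held TTTGAA, 16 held CCAAT and 3.12% held both. Of 8 windows from 7 of the 12 macrophage marker genes, 0% held TTTGAA and 12.5% held CCAAT. A match gives the letters of the window and is not a measured binding site.

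Cycling macrophages made up between 5.11% and 9.15% of the C1q-high barcodes of a transplanted kidney. Rejecting kidney 1 held 68 of 1185, a share of 5.74% (exact 95% binomial interval 4.48 to 7.22), and rejecting kidney 2 held 134 of 1464, 9.15% (7.72 to 10.7). Tolerized kidney 1 held 58 of 1136, 5.11% (3.90 to 6.55), and tolerized kidney 2 held 17 of 331, 5.14% (3.02 to 8.10). Both tolerized kidneys were below both rejecting kidneys, but most of the gap came from rejecting kidney 2, since the intervals of the other 3 overlap and that of tolerized kidney 2 also reached into the interval of rejecting kidney 2. The mean share was 7.45% ± 2.41 (SD, n = 2) in rejecting and 5.12% ± 0.0215 (SD, n = 2) in tolerized kidneys, a difference of -2.32 percentage points with a two-sided exact permutation p of 0.3333, the smallest that 2 against 2 kidneys allow. Without rejecting kidney 2 the difference was -0.62 percentage points, and among barcodes of 5000 to 20000 UMIs it was -4.10 (exact permutation p = 0.3333, n = 2 a group). With barcodes of the highest doublet scores left out the shares were 5.63%, 8.56%, 2.82% and 4.93%, so that tolerized kidney 1 lost the largest part of its members. The intervals cover counting error only.

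Sequencing depth differed between the kidneys and bears on a gate of at least 1 UMI. The matrices held 56837038 and 48111410 UMIs in the rejecting and 96803926 and 94316013 in the tolerized kidneys, next to 41562534 and 34874702 in the naive kidneys, and the median cycling macrophage had 13460, 13592, 22543 and 20643 UMIs in rejecting kidneys 1 and 2 and tolerized kidneys 1 and 2, the order used for every set of 4 values below. Non-cycling barcodes were shallower, at 8130.5, 8106, 14362 and 11900 UMIs. With every C1q-high barcode thinned to 2000 UMIs the shares were 3.14%, 4.64%, 2.03% and 2.96%, with rejecting still above tolerized in all pairs (exact permutation p = 0.3333, n = 2 a group, 134, 63, 54 and 27 shallower barcodes left out). At 5000 UMIs they were 4.2%, 6.97%, 3.31% and 4.98%, and the groups overlapped (exact permutation p = 0.6667, n = 2 a group, 375, 245, 140 and 70 left out). Taken over all barcodes of the kidney, cycling macrophages were 0.579%, 1.66%, 0.591% and 0.247%, also with overlap between the groups.

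**Figure D1:**
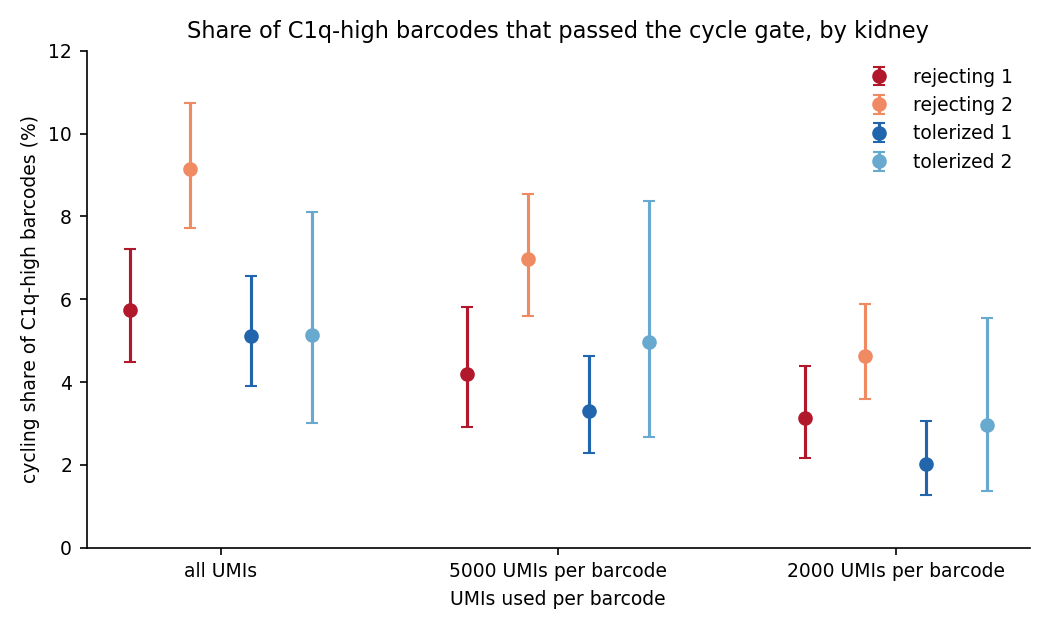
Share of C1q-high barcodes that met the cycling rule in each transplanted kidney (y axis, percent), with all UMIs and with barcodes thinned to 5000 or 2000 UMIs (x axis); bars are exact 95% binomial intervals. Rejecting kidney 2 is the highest in each setting (9.15%, 6.97% and 4.64%), and tolerized kidney 2 lies above rejecting kidney 1 at 5000 UMIs.

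Naive kidneys held few C1q-high barcodes. Naive kidney 1 had 0 cycling of 40. This allows a share of up to 7.5% by a limit of 3 counts and 8.81% by the exact 95% binomial interval. Naive kidney 2 had 1 of 119, 0.84% (0.0213 to 4.59). Their non-cycling barcodes were shallow, with medians of 2102 and 3002 UMIs, and allografts thinned to 2000 UMIs had shares of 2.03% to 4.64%. A naive share below those of the allografts was therefore not shown in either naive kidney. Cycling T cells, barcodes with at least 2 UMIs of Cd3e and Cd3d, under 3 UMIs of C1q, 0 of Cd79a and the same cycle genes, were 4.99%, 4.99%, 4.67% and 6.16% of T cells in the 4 allografts. The T cell shares did not place rejecting kidney 2 apart.

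The barcodes carried macrophage markers that the rule did not use. Csf1r, the receptor for the macrophage growth factor CSF-1, had a UMI in 94.6% of the 277 cycling macrophages against 4.16% of 361 cycling T cells, at median depths of 15839 and 8018 UMIs. With both thinned to 2000 UMIs the shares were 53.7% and 1.79%. Adgre1, which encodes the F4/80 antigen, had a UMI in 80.9% against 0.554%, Fcgr1 in 88.8% against 1.94% and Aif1 in 99.3% against 10.5%. Thinned to 2000 UMIs these were 39.7% against 0.299%, 44.9% against 0.597% and 92.6% against 3.58%. Abundant transcripts were also seen in T cells, Lyz2 in 97.5% against 48.5% and Cst3 in 99.3% against 70.6%, and Mertk was seen in 33.9% against 1.11%. Ccr2, the receptor that brings monocytes out of the bone marrow, was seen in 58.5% against 54 of the 361 T cells. Ly6c2, which marks classical monocytes and which activated T cells can also express, was seen in 14.1% against 15.2%, and in 2.57% against 6.57% with both thinned to 2000 UMIs. By their rules the T cells had under 3 C1q UMIs and the members 0 UMIs of Cd3e and Cd3d. Gaps in macrophage markers follow in part from these rules. Cycling dendritic cells or monocytes were not set beside the members.

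Markers of lymphocytes and neutrophils were at low levels in the cycling macrophages, and those of dendritic cells at higher levels. Levels are given here as CPM, the UMIs of a gene scaled to a common total over the summed barcodes of a kidney. All 15 T cell markers together came to 69.1, 17.7, 9.66 and 9.40 CPM, led by Cd3g in rejecting kidney 1 (20.7 CPM) and by Trbc2 in the mean over kidneys (6.64 CPM). The 10 NK markers came to 79.0, 82.6, 57.9 and 56.4 CPM, nearly all of it Klrk1 (61.9), with Ncr1, Eomes and Klra8 at 0. The 11 B and plasma cell markers came to 92.5, 154, 125 and 213 CPM, most of it Ighm (114), with Pax5 at 0. The 8 neutrophil markers came to 24.2, 40.2, 26.0 and 50.1 CPM, most of it Csf3r (29.4), with Ly6g and Mmp9 at 0. The 11 dendritic cell markers came to 682, 544, 377 and 354 CPM, led by Bst2 (310), with Ccr7 at 0. Among them Xcr1 was at 50.3, 38.6, 40.9 and 56.4 CPM, Clec9a at 77.2, 34.8, 28.2 and 43.8, and Batf3 at a mean of 71.4. Flt3 and Zbtb46 had means of 0.225 and 0.41 CPM. Lymphocyte UMIs had removed 303, 137, 83 and 19 barcodes from the C1q-high set.

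The 9 distal nephron markers came to 343, 246, 43.1 and 197 CPM, of which Slc12a3 gave 227 CPM in rejecting kidney 1, the 11 endothelial and stromal markers to 67.4, 64.9, 161 and 56.4 CPM, and the 5 red cell markers to 18.0, 17.2, 4.46 and 40.7 CPM.

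Proximal tubule RNA exceeded the lists of other cell types above in rejecting kidney 2 and both tolerized kidneys. In rejecting kidney 1 it lay below the dendritic cell markers. The 10 tubule markers summed to 427, 1113, 1347 and 12064 CPM, led by Kap, a kidney androgen-regulated gene. Of the Kap UMIs of the cycling macrophages, 949 of 1108 in rejecting kidney 2, 716 of 977 in tolerized kidney 1 and 3041 of 3123 in tolerized kidney 2 sat in 1 barcode each. Doublet scores also set 1 kidney apart. Barcodes among the highest Scrublet scores of their kidney were 8 of 68, 18 of 134, 30 of 58 and 2 of 17 cycling macrophages, or 11.8%, 13.4%, 51.7% and 11.8%, against 10.4%, 6.29%, 10.4% and 8.56% of non-cycling barcodes. Of the members, 1, 2, 1 and 0 had a barcode that another allograft also held.

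The members ranged from shallow, barely gated barcodes to barcodes rich in cycle RNA. Top2a had 1 UMI in 78 of them, 2 to 4 in 67 and 5 or more in 132, up to 47. Mki67, Birc5 (survivin, of the chromosomal passenger complex) and Cdk1 were found in 242, 184 and 183, with 1 of these 3 genes in 82 members, 2 in 58 and all 3 in 137. C1q UMIs reached 100 or more in 228 members and lay between 10 and 19 in 7. The 82 members with a single further gene had a median of 15.5 UMIs from the S phase and the G2 and mitosis lists, next to 6.5 in 226 C1q-high barcodes with Top2a alone, 6 in 611 with a further gene but no Top2a, and 4 in the 3002 without any. The 4 members with 10 to 14 C1q UMIs had a median of 29.5 such UMIs, and 4 otherwise matching barcodes with 5 to 9 C1q UMIs had 120.5.

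S phase and mitosis were both represented. Of the 242 members with at least 10 UMIs from the 2 lists, 85 had over 2/3 of them from S phase genes, 87 under 1/3 and 70 a mixture. The S phase share of the pooled cycle UMIs was 49.8%, 37.4%, 43.3% and 23.6%, a mean of 43.6% ± 8.77 (SD, n = 2) in rejecting and 33.5% ± 13.9 in tolerized kidneys. The groups overlapped (difference -10.1 percentage points, two-sided exact permutation p = 0.6667, n = 2 a group). Tolerized kidney 2, with 17 members, was the lowest, and 10 of its 13 members with enough UMIs were under 1/3. The difference was -0.289 percentage points without that kidney and -20.0 without tolerized kidney 1. In tolerized kidney 1 the share rested on the doublet-scored barcodes, being 73.9% without them, which turned the difference between the groups to 6.83 percentage points. Leaving them out took the S phase UMIs of that kidney from 3639 to 1540 and its G2 and mitosis UMIs from 4766 to 543. Cycling T cells of the same libraries had S phase shares of 48.1%, 46.3%, 44.3% and 41.8%.

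**Figure D2:**
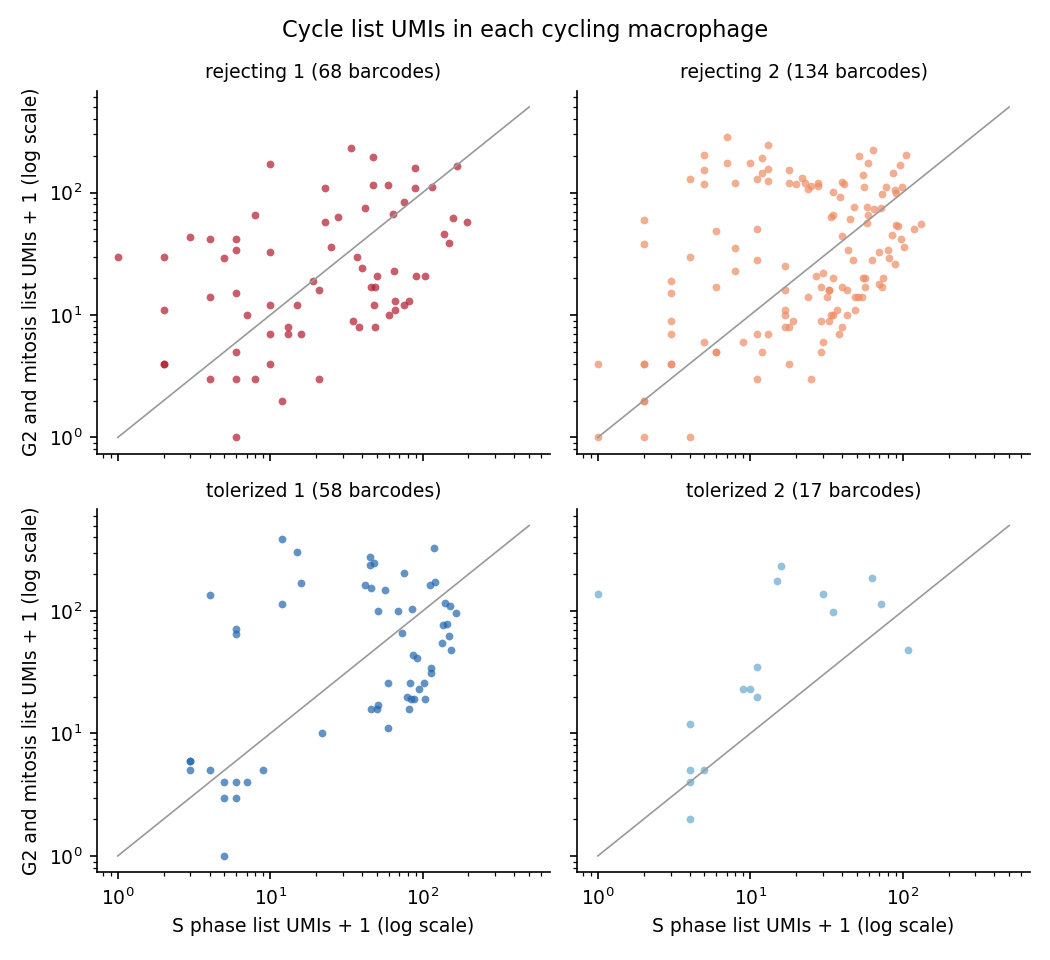
UMIs of the S phase list (x axis) and of the G2 and mitosis list (y axis), each plus 1 on a log scale, in every cycling macrophage, 1 panel a kidney; the line marks equal counts. Rejecting kidneys 1 and 2 and tolerized kidney 1 have barcodes on both sides of the line, while 10 of 13 barcodes of tolerized kidney 2 with at least 10 list UMIs had under 1/3 from the S phase list.

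Within each kidney the cycling macrophages were set against its non-cycling C1q-high barcodes. Because Top2a, Mki67, Birc5 and Cdk1 defined both sets, the differences that follow are a description of the gate and carry no test. Top2a was 411, 584, 419 and 435 CPM in cycling macrophages and 0 in the non-cycling set by definition. Over 7749 genes with a mean of at least 10 CPM in either set, 433 (5.59%) were at least 2-fold higher on average and higher in 4 of 4 kidneys, and 72 (0.929%) were at least 2-fold lower and lower in 4 of 4. With no limit on the fold, 1890 (24.4%) were higher and 1024 (13.2%) lower in 4 of 4 kidneys, and the counts of list members below are read against these shares. The median log2 difference of all these genes was 0.05. The split depended on the barcodes used, with 403 higher and 329 lower among barcodes of 5000 to 20000 UMIs, and 540 higher and 230 lower with 2 further cycle genes asked for.

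Replication genes outside the gate were far higher in the cycling macrophages. Of the 32 S phase genes, 31 were at least 2-fold higher on average and higher in 4 of 4 kidneys, with a median log2 difference of 2.59. Pclaf, a PCNA-binding factor, had 304, 315, 366 and 291 CPM against 4.59, 1.59, 0.95 and 0.97 in non-cycling barcodes, a log2 difference of 6.87 ± 0.78 (SD, n = 4). Rrm2, the regulated subunit of ribonucleotide reductase, had 102, 106, 106 and 94.0 CPM against 0.72, 0.73, 0.35 and 0.32 (6.08 ± 0.19). The size of such differences depends on the pseudocount where non-cycling levels are near 0, and with 10 CPM in place of 1 they were 4.78 for Pclaf, 3.41 for Rrm2 and 4.38 for the mitotic gene Ube2c. Thymidine kinase Tk1 was 150, 148, 138 and 103 CPM (4.41 ± 0.19), and Mcm5, of the replicative helicase, was 123, 110, 130 and 34.5 CPM (3.17 ± 0.59). Tolerized kidney 2 was the lowest of the 4 for both, as it was for Hells, a chromatin remodeler (90.7, 56.8, 84.7 and 9.40 CPM). Ccne1, the G1/S cyclin that missed the count of 4 kidneys, was 22.5, 32.7, 31.2 and 0 CPM.

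Mitotic genes differed by more. Of the 38 measured genes of the G2 and mitosis list, 37 were at least 2-fold higher on average and higher in 4 of 4 kidneys, with a median log2 difference of 4.60. Ube2c, the ubiquitin-conjugating enzyme of the anaphase-promoting complex, had 141, 277, 242 and 310 CPM against 3.44, 2.20, 0.52 and 0.65 (6.58 ± 1.16, SD, n = 4). Cenpf, of the kinetochore, was at 6.52 ± 0.35, and Hmmr, a spindle protein, at 5.94 ± 0.59. The others among the 10 largest differences with the gate genes left out were Nusap1 (5.92), Ccna2 (cyclin A2, 5.80), Prc1 (5.79), Ccnb2 (cyclin B2, 5.71) and the spindle motor Kif11 (5.67). Ccnb2 was 62.9, 87.4, 86.2 and 147 CPM, so that tolerized kidney 2 was the highest for cyclin B2 and the lowest for Tk1. The exception was Pttg1 (securin), at 30.5, 30.0, 23.0 and 47.0 CPM against 27.0, 30.1, 33.1 and 32.4.

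Chromatin and tubulin genes, which dividing cells use in bulk, followed. All 15 were higher in 4 of 4 kidneys and 14 were at least 2-fold higher, with a median log2 difference of 2.12. Stmn1, which destabilizes microtubules, was 611, 948, 956 and 680 CPM against 18.7, 18.7, 16.2 and 11.7 (5.52 ± 0.39). H2afz, a histone variant, was 2247, 2549, 2326 and 2155 CPM against 683, 760, 696 and 702 (1.70 ± 0.06), and Tubb2a differed least (0.50 ± 0.11).

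Inhibitors and G1 regulators of the cycle did not differ as a block. Among the 8 measured inhibitors, Cdkn3 (4.77 ± 0.45), Cdkn2c (3.02 ± 0.51), Cdkn2d (2.48 ± 0.28) and Rbl1 (2.06 ± 0.58) were higher in 4 of 4 kidneys. Cdkn1a, which encodes p21, was 68.3, 241, 199 and 150 CPM against 104, 183, 116 and 99.1 (0.29 ± 0.61), and Cdkn1b, which encodes p27, was at 0.24 ± 0.39 and Rb1 at -0.21 ± 0.35, each within the spread between kidneys. Of the G1 genes, Cdk2 (1.37 ± 0.26) and Cdk4 (1.11 ± 0.52) were higher in 4 of 4 kidneys, as was Ccnd3 (0.60 ± 0.37), while Ccnd1 (170, 133, 134 and 103 CPM against 145, 126, 123 and 146) was at -0.02 ± 0.32. Myc was under 10 CPM in most of the kidneys and not measured by the limit used.

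**Figure D3:**
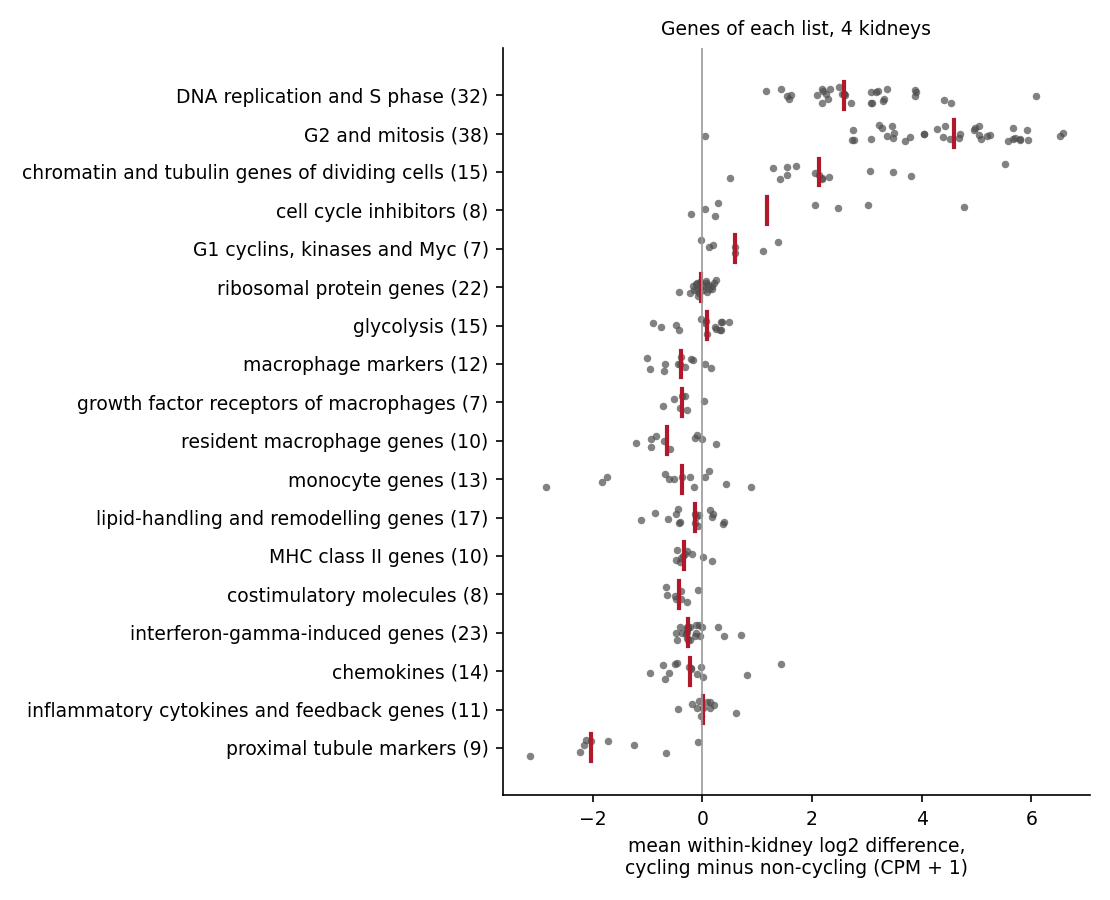
Mean within-kidney log2 difference, cycling minus non-cycling, on CPM plus 1 (x axis) for each measured gene (points) of 18 gene lists (y axis, number of measured genes in brackets), with the list median as a bar; n = 4 kidneys. The S phase, G2 and mitosis, and chromatin lists lie to the right (medians 2.59, 4.60 and 2.12), the macrophage lists just left of 0, and the proximal tubule markers furthest left.

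Most macrophage genes had lower CPM in the cycling macrophages, though well above 0. Of 12 macrophage markers 9 were lower in 4 of 4 kidneys and 0 were higher in 4 of 4, beside 13.2% and 24.4% of all genes, with a median log2 difference of -0.40. Lyz2, lysozyme, was 8601, 12522, 12903 and 14272 CPM against 18195, 18877, 19818 and 19491, a difference of -0.69 ± 0.27. Adgre1 was at -0.69 ± 0.29, Ms4a7 at -0.96 ± 0.33, Tyrobp at -0.41 ± 0.07 and Csf1r at -0.31 ± 0.25, whereas Cd68 was at 0.06 ± 0.22. The C1q genes were themselves slightly lower in CPM (C1qa -0.27 ± 0.08), although the cycling macrophages had more C1q UMIs per barcode, with medians of 274.5, 247.5, 404.5 and 262 against 132, 165, 278 and 194. Depth per barcode differed between the sets. Among barcodes of 5000 to 20000 UMIs the difference was -0.45 ± 0.29 for Lyz2, -0.44 ± 0.16 for Adgre1 and -0.09 ± 0.29 for Csf1r, smaller than with all barcodes for each and within the spread between kidneys for Csf1r.

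Of 7 measured growth factor receptor genes 3 were lower and 0 higher in 4 of 4 kidneys, with a median of -0.37. Csf2ra, a subunit of the GM-CSF receptor, was at -0.27 ± 0.06 and its partner Csf2rb at 0.04 ± 0.47, and the growth factor gene Csf2 was at 0.

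Of 10 measured genes of resident macrophages 5 were lower and 0 higher in 4 of 4 kidneys (median -0.64). Apoe, the lipid carrier, was 3383, 8666, 10833 and 7996 CPM against 16854, 16333, 18702 and 13715 (-1.20 ± 0.75), with rejecting kidney 1 far below the others. It was -0.83 without that kidney and -0.69 ± 0.49 among barcodes of 5000 to 20000 UMIs. Selenop, a selenium carrier, was at -0.93 ± 0.42, the mannose receptor Mrc1 at -0.84 ± 0.47 and the transcription factor Maf at -0.58 ± 0.20. Of 17 lipid-handling and remodelling genes, with a median of -0.12, 5 were lower in 4 of 4 kidneys, the cathepsins Ctsd, Ctsb and Ctsl, the fatty acid binding protein Fabp5 (-0.87 ± 0.48) and the cholesterol exporter Abca1 (-1.12 ± 0.95), and 1, Cd9, was higher (0.38 ± 0.33). Of 13 measured monocyte genes 5 were lower in 4 of 4 kidneys and 1, Spn (CD43, 0.90 ± 0.31), was higher. Chil3 (-2.84 ± 1.11), Hp (-1.82 ± 0.58) and Ly6c2 (-1.74 ± 1.93) were at least 2-fold lower on average. Their UMIs in cycling macrophages were few, with 0, 21, 0 and 0 for Chil3, 4, 7, 2 and 2 for Hp, and 37, 34, 22 and 0 for Ly6c2. Ccr2 ran from 151 to 711 CPM between kidneys, with no common direction (-0.14 ± 0.76).

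Axl, a receptor tyrosine kinase that recognizes dying cells and that the study followed in graft macrophages, differed little. It was 230, 162, 231 and 197 CPM in cycling macrophages and 226, 185, 235 and 236 in non-cycling barcodes (-0.11 ± 0.14, SD, n = 4). Its relative Mertk was 52.1, 35.9, 44.6 and 9.40 CPM against 73.3, 54.4, 69.6 and 51.5 (-1.01 ± 0.89, and -0.57 without tolerized kidney 2), and their ligand Gas6 was at -0.93 ± 0.52, both lower in 4 of 4 kidneys. Tyro3, the remaining receptor of the family, was at 0 in every kidney.

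**Figure D4:**
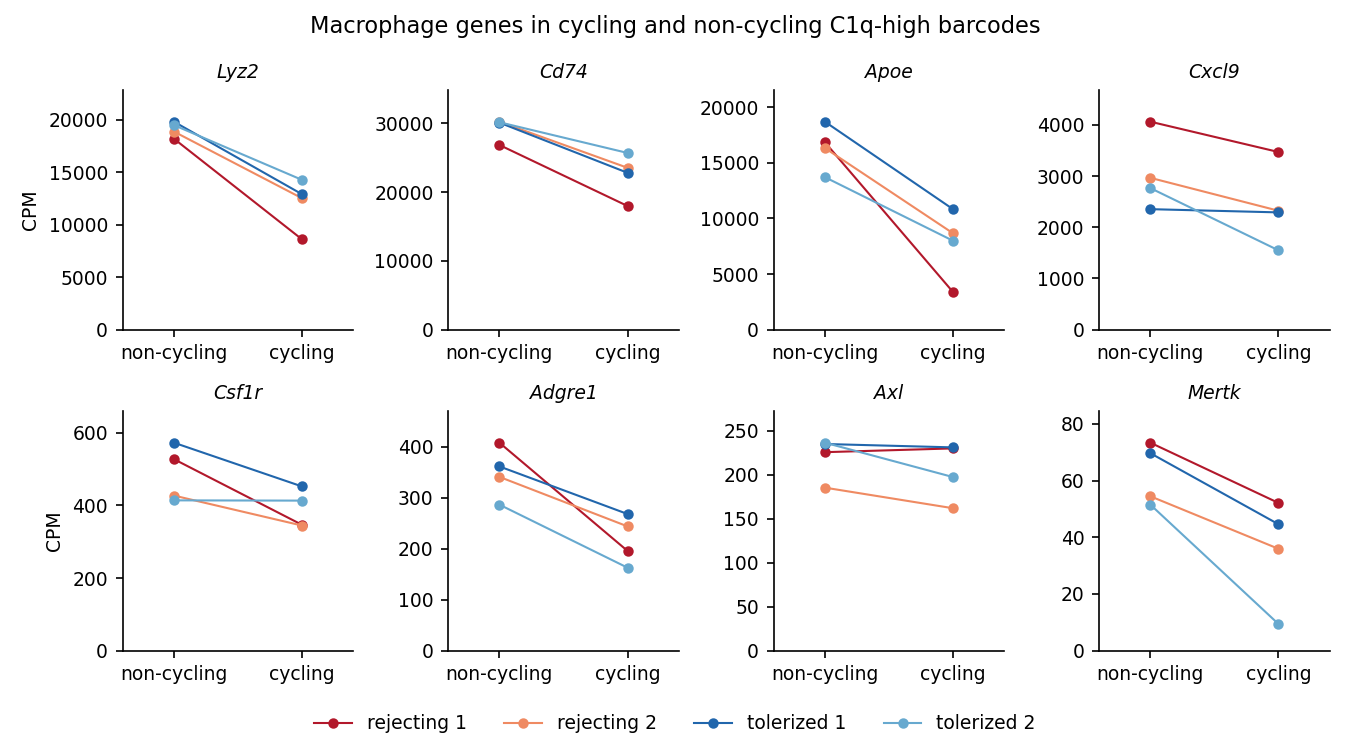
CPM of 8 macrophage genes (y axes from 0) in non-cycling and cycling C1q-high barcodes (x axis), with 1 line a kidney. Lyz2, Cd74, Apoe, Cxcl9, Adgre1 and Mertk are lower in the cycling set along all 4 lines, whereas Axl is nearly level in rejecting kidney 1 and tolerized kidney 1.

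Most antigen presentation genes had slightly lower CPM, set beside the 13.2% of all genes that were lower in 4 of 4 kidneys. Of 10 measured MHC class II genes 7 were lower in 4 of 4 kidneys (median -0.34), with Cd74, the invariant chain, at 17988, 23546, 22820 and 25707 CPM against 26864, 30251, 30118 and 30171 (-0.39 ± 0.14, and -0.22 ± 0.06 among barcodes of 5000 to 20000 UMIs). The costimulatory list had 7 of 8 lower in 4 of 4 kidneys (median -0.43). It mixes stimulating and inhibitory ligands. Cd86 (-0.38 ± 0.32) and Cd40 (-0.39 ± 0.08) were lower, as were the PD-1 ligand genes Cd274 (-0.28 ± 0.15) and Pdcd1lg2 (-0.66 ± 0.37) and the inhibitory Vsir (-0.48 ± 0.31). Of 23 interferon-gamma-induced genes 9 were lower in 4 of 4 (median -0.25), among them Cxcl9, a chemokine that draws activated T cells, at 3472, 2324, 2292 and 1550 CPM (-0.36 ± 0.34). The 14 measured chemokines and 11 inflammatory genes had 1 (Ccl5, -0.72) and 0 lower in 4 of 4, no more than the share of all genes. Of 5 measured dendritic cell markers 1 (Xcr1, 0.76 ± 0.13) was higher and 1 (Batf3, -0.29 ± 0.40) lower in 4 of 4, with a median of -0.16, and Clec9a was at -0.03 ± 0.64. The chemokine list summed to 3471 CPM in the cycling macrophages of rejecting kidney 1 against 9501 in its non-cycling barcodes, a wider gap than in the other 3 kidneys (7036, 6861 and 5146 against 8715, 6956 and 6894).

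Genes of bulk metabolism differed less than those of the cycle. Of 15 glycolysis genes 6, among them Gapdh (0.49), Pkm and Ldha, were higher in 4 of 4 kidneys, and Hk2 and Pfkfb3 were lower, with a median of 0.10. Of 22 ribosomal protein genes 5 were higher and 7 lower, with a median of -0.02. Over all genes these shares were 24.4% higher and 13.2% lower, with a median of 0.05. Among the 10 genes furthest below the non-cycling level were Slc34a1, Miox, Gpx3 and Spp2, which proximal tubule cells express, at log2 differences of -2.11, -2.04, -2.16 and -3.03. A limit added after seeing the data left out barcodes with more than 1% tubule and distal nephron marker UMIs. With it these values were -0.20, -0.64, -0.81 and -1.17. Slc34a1, Miox and Gpx3 are among the markers that this limit counts, so their move toward 0 follows from the limit itself. Slfn5, an interferon-induced gene of the Schlafen family, was 37.7, 33.8, 25.3 and 21.9 CPM against 88.1, 130, 72.7 and 78.0 (-1.60 ± 0.32), and -1.64 with that limit.

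Cycling macrophages of tolerized and rejecting kidneys were then compared over kidneys, on counts summed to 1113541, 1865478, 1346069 and 319292 UMIs. Of 8036 genes tested with edgeR's quasi-likelihood test and Benjamini-Hochberg adjustment, 0 (0%) passed an FDR of 0.05, 322 (4.01%) had an unadjusted p under 0.05, and DESeq2 called 1. The kidneys of the groups did not overlap in 2704 genes (33.6%), 1325 higher and 1379 lower in tolerized. The genes below are those with the lowest p in each direction whose groups did not overlap, and all miss the FDR with edgeR in this fit, which has no block. Missing the FDR does not show that a gene was equal between the groups. With the replicate number as a block edgeR called 37 genes, 26 of them with higher values in the tolerized group and 11 with lower, and Ccl24, Ubd, Ear2 and Fabp4 were among them (FDR 0.000469, 0.00485, 0.0174 and 0.0144). The study's supplement shows 1 kidney of each group in each of 2 experiments, but the labels do not say whether the replicate numbers stand for them.

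A chemokine had the lowest p among the genes with lower values in tolerized kidneys. Ccl24, an eosinophil-attracting chemokine (chr5:135569937-135573049), had 82, 70, 2 and 0 UMIs, a log2 difference of -5.39 (SE 0.74, edgeR FDR 0.506, DESeq2 FDR 0.0288). In the non-cycling barcodes of the same kidneys it had 23, 82, 94 and 86 UMIs, a difference in the opposite direction (1.39, SE 0.67). With marked doublets left out the difference of Ccl24 was -4.30 (edgeR FDR 0.224). Ubd, a ubiquitin-like protein, had 83, 48, 8 and 0 UMIs (-3.36, SE 0.78, against -0.48, SE 0.46, in non-cycling barcodes). How the UMIs of Ccl24 and Ubd were spread over single barcodes was not tested. Irf7, the interferon regulatory factor, was 163, 137, 69.8 and 69.1 TMM-scaled CPM (-1.11, SE 0.27). Hspa5, the chaperone of the endoplasmic reticulum, was 1171, 898, 456 and 530 (-1.07, SE 0.27), next to 1031, 986, 506 and 589 in non-cycling barcodes (-0.88, SE 0.18), and the difference between the sets was -0.25 (SE 0.18). Gdf15, a stress-induced cytokine, was at -1.33 (SE 0.31), Erh at -1.23 (SE 0.25) and the nuclear importer Kpna4 at -1.24 (SE 0.28).

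Genes with higher values in tolerized kidneys included a chemokine, a ribonuclease and a histone. Ear2, an eosinophil-associated ribonuclease with close copies in the genome, had 20, 16, 88 and 17 UMIs, or 18.0, 8.23, 64.7 and 56.0 TMM-scaled CPM (2.29, SE 0.41, edgeR FDR 0.999867). Fabp4, a fatty acid binding protein that capillary endothelium also expresses, had 4, 4, 78 and 3 UMIs (3.86, SE 0.73), and 76 of the 78 in tolerized kidney 1 were in 1 barcode. Of those 78 UMIs, 77 were in barcodes marked as doublets, as were all 46 of the endothelial marker Emcn in that kidney, next to 1, 3 and 0 UMIs of Emcn in the others. Ccl5, which attracts T cells, was 351, 330, 769 and 691 TMM-scaled CPM (1.10, SE 0.24), and 1009, 597, 970 and 773 in the non-cycling barcodes (0.12, SE 0.27). Hist1h2bc, a histone H2B gene, had 29, 66, 102 and 41 UMIs (1.72, SE 0.37), and Tnip3, an inhibitor of NF-kappaB signaling, was at 1.58 (SE 0.36). Col4a1, a basement membrane collagen, had 0, 4, 21 and 6 UMIs, of which 20 of 21 and 5 of 6 in the tolerized kidneys were in marked doublets, and Plxdc2 was at 1.47 (SE 0.34). Usmg5, of the mitochondrial ATP synthase, was at 1.22 (SE 0.30).

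Some of these genes have near-identical copies among which reads may be split. Ftl1-ps1 (-1.89, SE 0.39) and Rpl13a-ps1 (-2.73, SE 0.71) carry pseudogene names, and whether their reads were split among copies was not tested. Rps28 was 220, 515, 1256 and 1080 TMM-scaled CPM in cycling macrophages (1.66, SE 0.39) and 210, 485, 1281 and 1138 in non-cycling barcodes (1.80, SE 0.36).

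**Figure D5:**
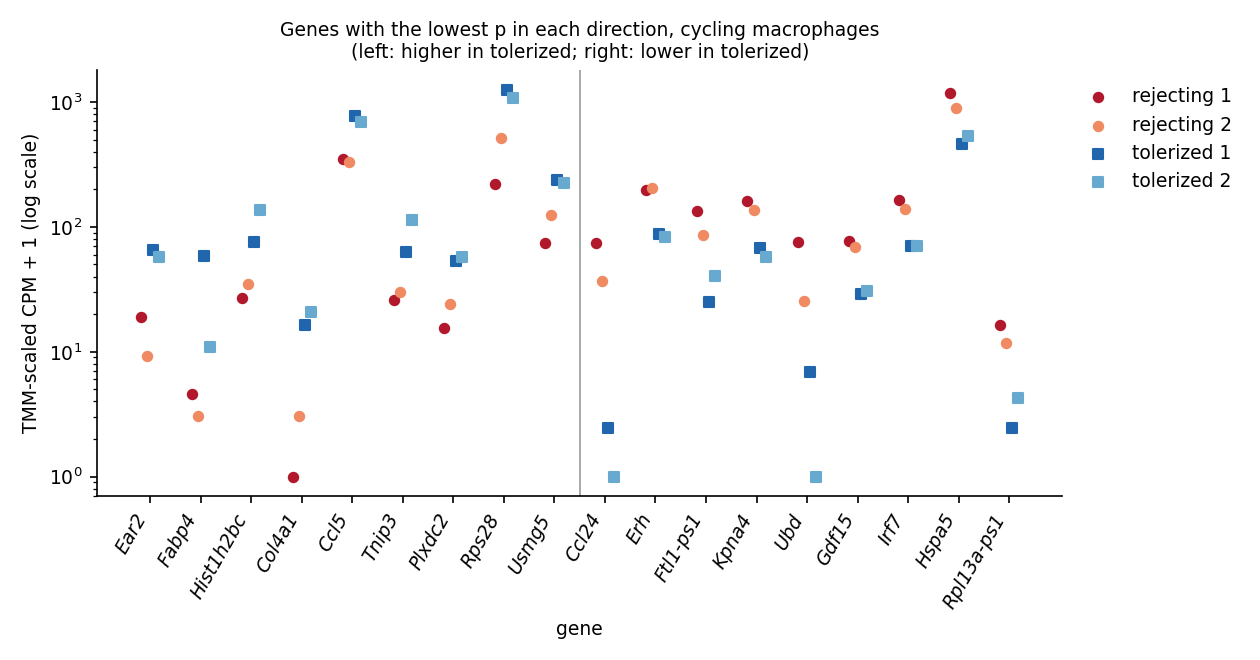
TMM-scaled CPM plus 1 on a log scale (y axis) of the named genes with the lowest p in each direction (x axis) in the cycling macrophages of the 4 allografts, 1 point a kidney. The groups do not overlap for these genes by the rule that chose them, Ccl24 and Ubd have no UMIs in tolerized kidney 2, and no gene passed the FDR with edgeR without the block.

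By list, 0 genes of any list passed the FDR with edgeR without the block, and DESeq2 called Ccl24 of the chemokine list. Of all genes tested, 2.41% had higher and 1.59% lower values in the tolerized group at an edgeR p under 0.05 before adjustment. Of the 22 ribosomal protein genes 9 had higher values in tolerized kidneys with an edgeR p under 0.05 before adjustment, with a list median log2 difference of 0.49 beside -0.01 for all genes tested. The 32 S phase genes had a median of -0.19, with Pcna lower at an unadjusted p of 0.041, and the 39 G2 and mitosis genes a median of 0.18, with Cdc20 higher at 0.029, both by edgeR and neither past the FDR. The interferon-gamma list had a median of -0.35 over 23 genes, 2 of them (Gbp3 and Gbp6) lower at an unadjusted p under 0.05. The 7 tested proximal tubule genes all had higher values in the tolerized group with an edgeR p under 0.05 before adjustment. The summed tubule markers were also higher in both tolerized kidneys in the non-cycling barcodes (2159, 1309, 5559 and 3579 CPM), and the part of tubule RNA in these differences was not tested. In the cycling macrophages 103 of 476, 1252 of 2076, 862 of 1813 and 3396 of 3852 proximal tubule marker UMIs were in 1 barcode of each kidney. Of 3 tested distal nephron genes, Umod (93, 321, 29 and 21 UMIs) and Slc12a3 (253, 3, 2 and 5 UMIs) had lower values in the tolerized group at an edgeR p under 0.05 before adjustment (list median -1.72). Slc12a3 rested on rejecting kidney 1, and 302 of 382 and 410 of 459 distal nephron UMIs of the rejecting kidneys were in 1 barcode each. In non-cycling barcodes the distal markers summed to 174, 267, 120 and 432 CPM, so that the groups overlapped. Of 3 tested endothelial and stromal genes, Flt1 (8, 27, 54 and 3 UMIs) had higher values at that limit (list median 1.29). Flt1 was 7.18, 14.5, 40.1 and 9.40 CPM, so the groups overlapped. In tolerized kidney 1, 21 of its 54 UMIs were in marked doublets, beside 30 of 58 members that were marked. Axl was at 0.19 (SE 0.28, edgeR unadjusted p = 0.518).

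Non-cycling C1q-high barcodes gave 0 of 11345 genes (0%) past the FDR with edgeR, 903 at an unadjusted p under 0.05 and 42 by DESeq2. With the replicate block edgeR called 9, and without rejecting kidneys 1 and 2 in turn it called 140 and 152. The difference between the 2 contrasts was tested as an interaction. Of 10143 genes, 0 (0%) passed with edgeR, 248 had an unadjusted p under 0.05 and DESeq2 called 1, H2-M2. H2-M2, a class Ib MHC gene named here after its value was seen, had 180, 189, 18 and 26 UMIs in cycling macrophages and 745, 968, 1179 and 1042 in non-cycling barcodes, and its interaction was -2.72 (SE 0.37, edgeR FDR 0.723). For Ccl24 the interaction was -6.40 (SE 1.19) and for Fabp4, whose UMIs lay mostly in 1 barcode, 3.67 (SE 0.59), each with an edgeR FDR of 1. In this fit no response to ECDI-SP was shown to differ between cycling and non-cycling macrophages, but edgeR called 68 genes with no filter on low counts, 28 without rejecting kidney 2 and 77 without tolerized kidney 1.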

How the data were processed

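Single cells of 2 naive, 2 rejecting and 2 tolerized kidneys were analyzed. The deposited matrices hold raw UMI counts per gene and barcode, made by the authors with Cell Ranger (3.0.1 in the matrix headers of the transplanted kidneys) on mm10, without normalization. The study removed doublets with DoubletDecon and kept fewer cells than the 49797 of 60181 barcodes kept here. Doublets were scored per kidney with Scrublet (scanpy 1.11.5). Its own threshold marked 127, 151, 277 and 2 barcodes of the transplanted kidneys, so the highest scores up to 0.8% per 1000 barcodes were marked, and marked barcodes were kept except in an alternative.

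Counts were summed per kidney and set, filtered with filterByExpr, scaled by TMM and tested with edgeR 4.0.16 (quasi-likelihood, Benjamini-Hochberg, FDR 0.05), for the rejecting and tolerized kidneys alone, and the interaction with a kidney term. DESeq2 1.42.0 was an alternative. Cycling and non-cycling sets were compared within kidneys as log2(CPM + 1), without a test, and shares by two-sided exact permutation over kidneys. The fits were first checked on simulated counts. Named genes were the 10 largest differences a direction at 50 CPM or more with the gate genes left out (cycling against non-cycling), the 10 lowest p a direction without overlap (tolerized against rejecting, where none passed the FDR), and Axl. List members with high levels or large differences were also named, and a few genes that the rules select are not reported here. Gene positions are from GENCODE M21 on GRCm38 and promoters from RefSeq. The members and the 27 lists were chosen with earlier results of these data known. Alternatives were other UMI, mitochondrial, C1q, cycle-gene, doublet and lymphocyte limits, DESeq2 size factors and test, no filter, another pseudocount, a replicate block and leaving out each kidney. A limit on tubule RNA, and the shares among barcodes of 5000 to 20000 UMIs, were added after seeing the data. Python 3.11.15, numpy 2.4.6, pandas 2.3.3, scipy 1.17.1, matplotlib 3.10.9 and R 4.3.3 with limma 3.58.1 were used.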

Additional observations from a re-analysis of the deposited data

How the results depend on the processing

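The count of genes between tolerized and rejecting kidneys rested on the tool and on single kidneys. In cycling macrophages it was 0 with edgeR, 169 with no filter on low counts, 1 with the DESeq2 test, and 0 to 10 with 1 kidney left out, where it was 6 without rejecting kidney 2 and 10 without tolerized kidney 1. With the replicate number as a replicate block it was 37, of which 26 were higher, and Ccl24, Ear2, Fabp4 and Ubd were among those called. The study ran its kidneys in 2 experiments with 1 of each group, and whether the replicate numbers stand for them is not in the labels. Deviations of same-numbered kidneys had a correlation over genes of 0.053, which with 2 pairs does not decide it. In non-cycling barcodes the count was 0 with edgeR, 412 without the filter, 42 with DESeq2, 9 with the replicate block, and 0 to 152 with 1 kidney left out (140 and 152 without rejecting kidneys 1 and 2). For the interaction it was 0, 68 without the filter, 1 with DESeq2, and 2 to 77 with 1 kidney left out (77 without tolerized kidney 1, 28 without rejecting kidney 2). A group left with 1 kidney was assumed to vary like the other. The cause of these changes was not tested.

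The 505 genes that differed at least 2-fold between cycling and non-cycling barcodes became 732 among barcodes of 5000 to 20000 UMIs, 770 with 2 further cycle genes, 549 with the stricter lymphocyte gate, 304 with a pseudocount of 10 CPM, and 544 to 606 with 1 kidney left out, where fewer kidneys had to agree. The difference in cycling share kept its direction in each alternative, from -1.39 to -3.22 percentage points by quality, doublet, gate, thinning and C1q settings, -4.10 among barcodes of 5000 to 20000 UMIs (added after seeing the data), -0.70 over all barcodes, and -4.03 to -0.62 with 1 kidney left out. The S phase share difference of -10.1 was 6.83 with doublets left out and -20.0 to -0.289 with 1 kidney left out. Axl between tolerized and rejecting kidneys was 0.19, and between -0.076 and 0.48 with 1 kidney left out. Of 340 recomputed values of 34 genes between cycling and non-cycling barcodes 36 moved by more than the spread between kidneys and 0 changed sign. Of 301 values of 21 genes between tolerized and rejecting kidneys 29 passed the FDR and 1, Axl without rejecting kidney 2 (-0.076), changed sign. The 17 members of tolerized kidney 2, with 319292 UMIs in all, limit every comparison of tolerized kidneys.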
